A study of Mus musculus with 6 samples.

Results

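Tenocyte-lineage cells, the matrix-producing cells of tendon, were selected on measured values from single-cell libraries of the injured rotator cuff enthesis, the site at which tendon inserts into bone. Of 64599 barcodes with at least 2000 unique molecular identifiers (UMIs, 1 per captured RNA molecule), at least 200 genes and at most 10% mitochondrial UMIs, 3099 were tenocytes. They were chosen by their own counts: Col1a1, Col1a2 and Col3a1 together made up at least 0.5% of UMIs, S100a8 and S100a9 under 1%, Ptprc and Cdh5 were at 0, Col2a1 was under 5 UMIs, and Mki67 and Top2a together were under 2. Each cell also held at least 1 UMI of Tnmd and at least 2 UMIs of Scx, Mkx, Thbs4 and Fmod combined. The 10939 cells that passed every term but the tendon ones are called stromal cells, and the 7840 of them that missed the tendon terms are the other stromal cells.

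The cells came from 3 libraries of C57BL/6 wild-type mice and 3 of Nlrp3-/- mice, a global knockout of the NLRP3 inflammasome sensor, all aged 12 to 14 weeks and sampled 7 days after enthesis injury and repair. Tissue was pooled from several animals before sequencing and the animals per library are not given, so the library was the replicate and p-values measure only the spread between libraries. The genotype field of Nlrp3-/- replicates 2 and 3 names Nlrp4 and Nlrp5, while their titles name Nlrp3; the titles were followed. Xist and the Y-linked genes separated the genotypes completely, so genotype and sex cannot be told apart. The paper names different suppliers for the wild-type and Nlrp3-/- mice, so supplier cannot be told apart from genotype either. Libraries held 97042713 to 134901999 UMIs. Median depth per tenocyte was 8971 to 15745 UMIs, and any 2 libraries shared 17 to 56 barcodes, of which 1 was a tenocyte in both.

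Tendon cells lay down aligned collagen fibrils, whose diameter and spacing are tuned by small leucine-rich proteoglycans and by minor collagens. Scleraxis and mohawk are transcription factors of the tendon lineage, tenomodulin is a membrane glycoprotein of differentiated tendon cells, and thrombospondin-4 and fibromodulin are secreted matrix proteins. Near bone, tendon passes through fibrocartilage, where cells also make cartilage proteoglycans and collagens.

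The 5 markers that give the cells their name were all in the rule, so their levels are a description. Tnmd averaged 482 to 915 CPM (counts per 1e+06 UMIs of the summed cells) in the summed tenocytes of the 6 libraries, with a median of 727 CPM. In the other stromal cells it lay at 1.88 to 21.9 CPM. Thbs4 was present in 80.5% to 98.0% of tenocytes and Fmod in 69.7% to 94.3%. Scx was seen in 62.7% to 86.2%, and the low-count factor Mkx in 6.74% to 18.9%. Just inside the limit stood 716 cells with a single Tnmd UMI, whose summed Kera, a gene outside the rule, was 6.97 to 128 CPM over the libraries. Just outside it stood 4285 cells with no Tnmd UMI but at least 2 of the other markers, with 3.32 to 35.5 CPM of Kera. Their Col11a1, also outside the rule, was 528 to 1350 CPM inside and 308 to 768 CPM outside, so both ranges overlapped across the limit. Within each library, however, both genes were higher in the cells inside than in those outside. A further 142 cells carried Tnmd with 1 UMI of the other markers, with Kera at 0 to 6.33 CPM, and 175 carried Tnmd and no UMI of the others, with Kera at 0 to 19.9 CPM.

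Compared with the other stromal cells of the same libraries, tenocytes carried more RNA for fibril-regulating matrix proteins and less for genes of the IL-1 response, pericyte and synovial lining lists. The edgeR quasi-likelihood test on summed UMIs, with the library as a block, placed 1890 of 13922 genes higher in tenocytes at an adjusted p under 0.05, or 13.6% of those tested. A further 2120 genes, 15.2%, were lower. These counts leave out the 15 genes of the rule. The 2 shares are the background for the list counts of this comparison. Of the 26 tendon fibril regulators, 20 were higher and 2 lower, with a median log2 difference of 0.49 against -0.0047 over all genes tested.

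Kera stood first among the named genes. It encodes keratocan, a small leucine-rich proteoglycan, and lies on chr10:97606879-97613692 (GRCm38, plus strand). Its summed level in tenocytes was 17.3 CPM in the lowest library, 93.4 CPM at the median and 250 CPM in the highest. In the other stromal cells it was 1.74, 6.66 and 26.7 CPM. The ranges overlapped across libraries, but tenocytes were higher in 6 of 6, by 3.37 on the log2 scale (SE 0.35, edgeR adjusted p = 6.26e-05). With each cell thinned to 2000 UMIs, Kera was found in 2.30% to 28.5% of tenocytes and in 0.402% to 4.38% of other stromal cells. Cells rich in S100a8 and S100a9, which should lack it, gave 0% to 0.349%, and the unthinned range in tenocytes was 7.46% to 60.5%.

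Cilp2, a cartilage intermediate layer protein on chr8:69880369-69887687 (minus strand), was a low-count gene with a similar difference. Tenocytes held 3.01, 23.6 and 57.2 CPM at the lowest, median and highest library, and other stromal cells 0.471, 2.44 and 6.81 CPM (log2 difference 3.18, SE 0.18, edgeR adjusted p = 1.54e-06). It was not among the leading genes by the naming rule because its mean stayed under 20 CPM. Its paralogue Cilp differed less, at 90.3 to 386 CPM against 78.6 to 271 CPM (0.92, SE 0.23).

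Col11a1, the fibril-nucleating chain of collagen XI (chr3:114030540-114220718, plus strand), separated tenocytes from other stromal cells in every library. Its tenocyte level was 704, 1396 and 1582 CPM, and the level in other stromal cells 239, 465 and 624 CPM. No library of one set overlapped the other set (1.64, SE 0.05, edgeR adjusted p = 9.14e-08). Comp, the pentameric cartilage oligomeric matrix protein, lay at 246, 497 and 1203 CPM against 95.6, 220 and 540 CPM (1.39, SE 0.06). Ogn, the proteoglycan osteoglycin, was at 889 to 2282 CPM against 335 to 684 CPM, again without overlap (1.51, SE 0.08). Aspn (1.04), Col12a1 (0.83), Thbs2 (0.82) and Col14a1 (0.80) were also higher, while Dcn and Bgn, abundant proteoglycans of most connective tissue, differed by only 0.30 and 0.36. Tnxb and Col5a3 were the 2 members that were lower; Tnxb encodes a tenascin of loose connective tissue and fell from a median of 46.8 CPM in other stromal cells to 5.14 CPM in tenocytes.

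**Figure D1:**
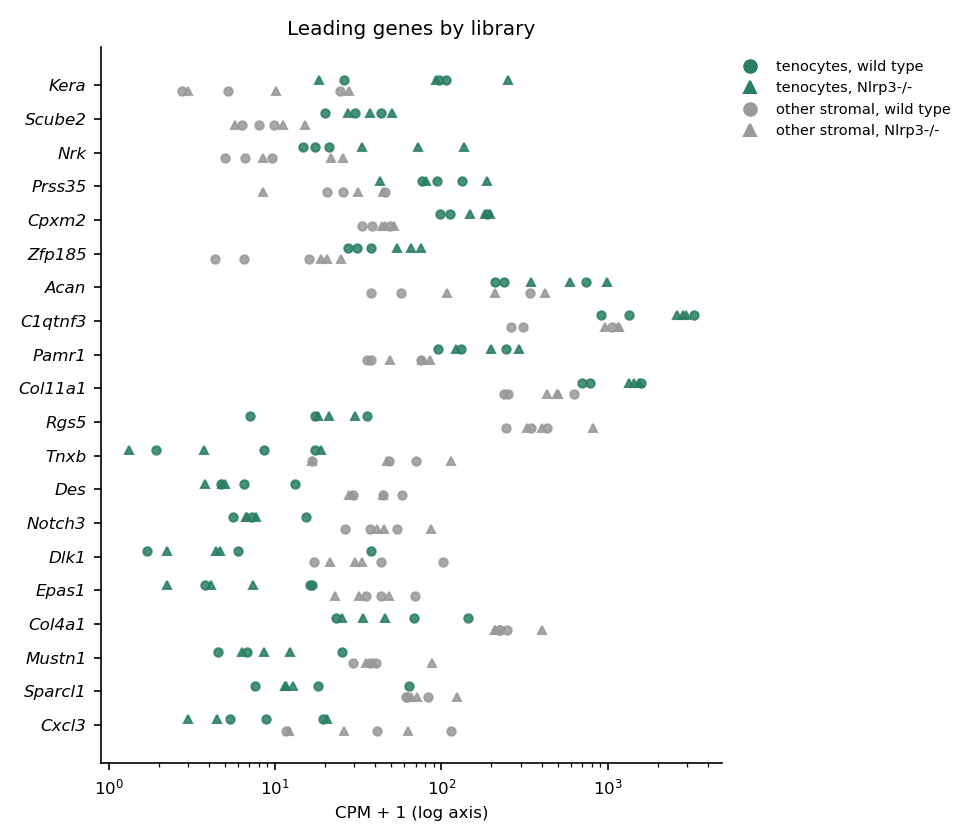
Summed level of the 10 leading genes in each direction, as CPM + 1 on a log axis, for tenocytes (green) and other stromal cells (grey); circles are wild-type libraries and triangles Nlrp3-/- libraries. For Col11a1 the tenocyte points, from 704 CPM upward, all lie right of the grey points, which end at 624 CPM, and for Rgs5 the order is turned, with tenocytes at most 34.7 CPM.

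The other leading genes higher in tenocytes were Scube2, Nrk, Prss35, Cpxm2, Zfp185, Acan, C1qtnf3 and Pamr1. Each was higher in 6 of 6 libraries, which the naming rule required of them and of Kera. C1qtnf3, a secreted C1q and TNF related protein, was at 915, 2732 and 3294 CPM in tenocytes and 261, 1008 and 1164 CPM in other stromal cells (1.70, SE 0.12). Cpxm2, a carboxypeptidase-like protein, stood at 97.2 to 195 CPM against 32.5 to 50.6 CPM, with no overlap (1.90, SE 0.09). Scube2, a secreted protein that releases hedgehog ligands from cells, was at 19.1 to 49.5 CPM against 4.77 to 14.1 CPM (2.1, SE 0.10). Igf1, a growth factor of tendon and muscle repair, was at 809, 1607 and 2518 CPM against 291, 702 and 1139 CPM (1.32, SE 0.05). The imprinted gene Mest was higher by 1.5 (SE 0.08) and the Wnt co-agonist Rspo2 by 1.38 (SE 0.13).

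Genes of cartilage and fibrocartilage followed the same direction. Of the 13 tested outside the rule, 9 were higher in tenocytes and none was lower, with a median log2 difference of 1.07. Acan, the large cartilage proteoglycan, was at 209, 468 and 985 CPM in tenocytes against 36.7, 158 and 421 CPM (1.75, SE 0.15). Ucma, a cartilage matrix protein rich in carboxylated glutamate, was at 7.37 to 28.1 CPM against 0.664 to 9.15 CPM (2.50, SE 0.27). Matn3 was higher by 1.60 (SE 0.20) and Sox9, the master factor of cartilage, by 0.42 (SE 0.10). Col10a1, a hypertrophic cartilage collagen, was not past the threshold (-0.64, SE 0.27).

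Among 12 tested tendon-related transcription factors, 6 were higher and 4 lower, with a median of 0.20. Eya2 was at 10.1 to 18.7 CPM against 3.03 to 5.05 CPM, without overlap (1.89, SE 0.12), and its partner Six2 at 9.48 to 17.8 CPM against 4.15 to 8.26 CPM, also without overlap (1.24, SE 0.12). Egr1, a factor induced by loading and by tissue handling, was lower by 0.65 in tenocytes (log2 -0.65, SE 0.16). Collagen-processing genes were divided, with 6 higher and 6 lower of 18. Plod2, a lysyl hydroxylase for collagen crosslinks, was higher (0.63, SE 0.06), while Lox, the oxidase that starts crosslinking, was not called (-0.01, SE 0.06).

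In the TGF-beta and GDF list, 5 of 28 tested genes were higher and 10 lower. Tgfb3, a ligand of tendon development, was at 125 to 176 CPM in tenocytes and 75.8 to 142 CPM in other stromal cells (0.64, SE 0.08). Gdf5, a joint-forming ligand, was at 0.502 to 12.5 CPM against 0 to 1.56 CPM and was higher in 5 of 6 libraries (2.47, SE 0.39). The ligands Bmp2 (-1.48, SE 0.16) and Inhba (-1.23, SE 0.21) were lower. Of 15 genes of IGF and FGF signalling, 6 were higher and 1, Igf1r, was lower. The Wnt list had 2 higher and 3 lower of 11, and the hedgehog list 1 higher and 2 lower of 7. Over all genes tested, 13.6% were higher and 15.2% lower. The higher counts of the TGF-beta, Wnt and hedgehog lists lay near that share and are no result about those lists.

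Matrix-degrading enzymes went in both directions, with 4 higher and 8 lower of 16. Mmp2 (0.71, SE 0.05) and its activator Mmp14 (0.57, SE 0.04) were higher in 6 of 6 libraries, as was the inhibitor Timp2 (0.90, SE 0.06). The stromelysin Mmp3 was at 18.8, 89.5 and 393 CPM in tenocytes against 83, 290 and 1171 CPM in other stromal cells (-1.59, SE 0.21). The aggrecanase Adamts5 was at 25 to 64.6 CPM against 85 to 143 CPM, with no overlap (-1.41, SE 0.11). Timp1, an inhibitor induced by cytokines, was lower by 0.93 (log2 -0.93, SE 0.15).

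The IL-1 response list moved the other way from the fibril genes. None of its 15 genes was higher in tenocytes and 14 were lower, with a median log2 difference of -0.75. Cxcl5, a neutrophil-attracting chemokine, was at 25.9, 59.7 and 397 CPM in tenocytes and 182, 384 and 1063 CPM in other stromal cells (-2.02, SE 0.29). The acute-phase gene Saa3 was at 29.3, 93.2 and 468 CPM against 99.9, 488 and 1648 CPM (-1.90, SE 0.19). Il6 was at 18.1 to 29.4 CPM against 35.8 to 152 CPM, and the monocyte chemokine Ccl2 at 44.1 to 197 CPM against 236 to 655 CPM, both without overlap (-1.71 and -1.72, SE 0.18 and 0.17). The member not called was Cxcl2 (-0.43, edgeR adjusted p = 0.0533). The receptor for IL-1, Il1r1, was at 37.6, 78.7 and 118 CPM against 120, 159 and 192 CPM, lower in 6 of 6 libraries (-0.95, SE 0.12, edgeR adjusted p = 1.91e-04). Of the 14 genes of IL-1 and the inflammasome, 7 were lower and none higher; Il1b and Nlrp3, made mainly by myeloid cells, were not called.

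**Figure D2:**
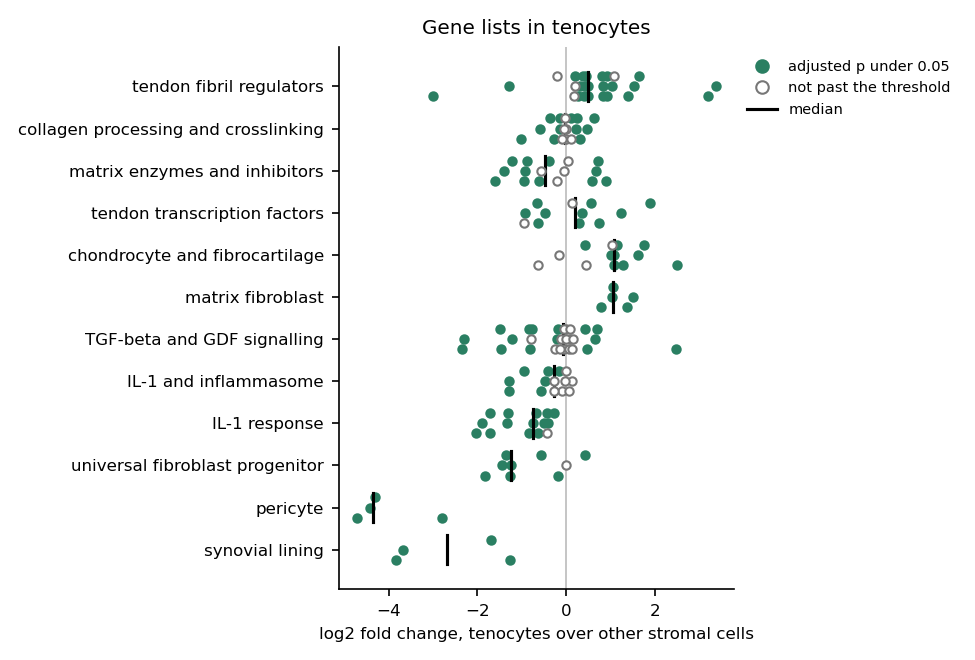
Each point is 1 gene, placed by its log2 difference between tenocytes and other stromal cells; filled points passed the edgeR adjusted p of 0.05, open points did not, and the black bar is the median of the list. The fibril, cartilage and matrix fibroblast medians lie at 0.49, 1.07 and 1.05, and the IL-1 response median at -0.75.

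The bases before the start sites of genes in these 2 lists are shown because the fibril and IL-1 response genes differed in opposite directions. Of the 20 higher fibril regulators 13 had a start site in the RefSeq table (GRCm38.p6), and of the 14 lower IL-1 response genes 9 did, with 10 start sites. In the 250 bases before the start, on both strands, the SOX-type motif AACAAT lay before 4 of 13 fibril start sites (30.8%), 0 of 10 IL-1 response start sites and 9.42% of all 32851. Kera, chr10:97606955-97607204 on the plus strand, and Cilp2, chr8:69887393-69887642 on the minus strand, are 2 of the 4, with the motif or its reverse complement in capitals. For both genes the RefSeq start lies downstream of the outermost start of the gene span given above, so these bases fall inside that span.
Kera: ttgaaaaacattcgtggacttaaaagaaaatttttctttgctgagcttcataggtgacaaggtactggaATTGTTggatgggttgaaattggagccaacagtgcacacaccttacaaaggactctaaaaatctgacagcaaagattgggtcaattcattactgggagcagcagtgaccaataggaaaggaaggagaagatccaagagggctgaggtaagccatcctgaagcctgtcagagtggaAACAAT
Cilp2: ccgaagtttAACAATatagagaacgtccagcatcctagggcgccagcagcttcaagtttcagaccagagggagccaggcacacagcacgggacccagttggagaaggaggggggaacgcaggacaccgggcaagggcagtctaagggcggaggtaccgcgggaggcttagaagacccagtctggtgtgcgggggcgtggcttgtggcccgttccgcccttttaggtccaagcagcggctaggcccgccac
The NF-kappaB core GGGANNTTC lay before 3 of the 10 IL-1 response start sites, before 0 of the 13 fibril sites and before 3.23% of all. The 3 were Il6, chr5:30012864-30013113 on the plus strand, Cxcl1, chr5:90890995-90891244 on the plus strand, and Nfkbia, chr12:55492648-55492897 on the minus strand, shown with the core or its reverse complement in capitals. In Cxcl1 the core was read on both strands at overlapping positions.
Il6: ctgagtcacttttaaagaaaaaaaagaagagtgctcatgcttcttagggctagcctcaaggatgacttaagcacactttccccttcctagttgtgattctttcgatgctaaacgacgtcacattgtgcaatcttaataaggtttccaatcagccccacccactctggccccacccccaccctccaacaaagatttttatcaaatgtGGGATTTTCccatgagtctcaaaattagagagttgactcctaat
Cxcl1: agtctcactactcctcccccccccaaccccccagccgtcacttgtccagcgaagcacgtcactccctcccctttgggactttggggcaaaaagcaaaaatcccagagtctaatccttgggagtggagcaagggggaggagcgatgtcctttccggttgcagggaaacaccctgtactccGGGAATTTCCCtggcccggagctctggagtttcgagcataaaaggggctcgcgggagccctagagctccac
Nfkbia: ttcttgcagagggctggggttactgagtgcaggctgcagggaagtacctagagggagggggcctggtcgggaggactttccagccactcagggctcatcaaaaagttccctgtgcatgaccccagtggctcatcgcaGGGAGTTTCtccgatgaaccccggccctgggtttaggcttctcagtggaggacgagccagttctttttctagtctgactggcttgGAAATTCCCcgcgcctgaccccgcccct
The AP-1 motif TGACTCA was before 3 of 10 and 1 of 13 against 4.46% of all, and the E-box CANNTG before 6 of 10 and 8 of 13 against 66.2% of all. These are matches of letters only, in lists chosen after their direction was known.

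The other stromal cells were a mixture. Of these 7840 cells, 4285 held no Tnmd UMI but at least 2 UMIs of the other tendon markers. Only 2254 held no UMI of any tendon gene of the rule. The comparison was therefore in large part between cells with and without a Tnmd UMI. All 4 pericyte markers were lower in tenocytes, and their summed level was 14.1 to 53.3 CPM in tenocytes but 299 to 958 CPM in other stromal cells. Rgs5, a regulator of G protein signalling in pericytes, was at 6.03, 18.6 and 34.7 CPM in tenocytes and 242, 374 and 816 CPM in other stromal cells (-4.30, SE 0.24). All 4 synovial lining markers were lower too, Prg4 (lubricin) in 5 of 6 libraries (-1.70, SE 0.38), and 7 of 9 markers of fibroblast progenitors were lower, among them Ly6a (-1.46, SE 0.12), while 1, Sema3c, was higher (0.43, SE 0.11). Of 8 macrophage markers none was called by edgeR, and their summed level was 176 to 742 CPM in tenocytes and 143 to 1740 CPM in other stromal cells, the highest of each in Nlrp3-/- replicate 1. Erythroid markers were lower in 4 of 4, and reached 531 CPM in the other stromal cells of 1 Nlrp3-/- library; their part in the result was not tested. When the 6009 other stromal cells with no UMI of the 4 pericyte markers were used instead, a comparison added after the data had been seen, 19 of 26 fibril regulators were higher, all but Lum of the earlier 20, and 13 of 15 IL-1 response genes were lower, of which Cxcl2 was newly called while Tnfaip3 and Icam1 lost the call, with Kera at 3.09, Cxcl5 at -2.09 and Il1r1 at -0.83. Over all genes, that comparison placed 1522 of 13530 higher in tenocytes and 1734 lower. In it Col4a1 and Sparcl1, 2 of the leading lower genes, were no longer called. It left in cells with Cxcl5 and Saa3, which are markers of inflammatory fibroblasts and members of the IL-1 response list. These 2 genes summed to 361 to 2840 CPM in the 6009 cells and 74.2 to 865 CPM in tenocytes. The part of such cells in the IL-1 response difference was not tested.

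Chondrocyte-like cells, 692 cells with at least 5 Col2a1 UMIs, served as the neighbour on the cartilage side. Of these cells 478 came from 1 Nlrp3-/- library, and wild-type replicate 2 was left out because it held 5. Over the remaining 5 libraries 2246 of 12487 genes were higher in tenocytes (18%) and 1913 lower (15.3%). All 14 cartilage markers tested outside the rule were lower in tenocytes. Col2a1 itself divided the 2 sets, so genes that accompany it were set to differ this way. Of the 692 cells, 257 also met both tendon terms and missed the tenocyte rule only by Col2a1, 215 of them in Nlrp3-/- replicate 2. Acan was at 209, 592 and 985 CPM in tenocytes and 3223, 3984 and 5420 CPM in chondrocyte-like cells (-3.17, SE 0.31), so the tenocyte level lay between that of the other stromal cells and that of these cells. Comp stood in the same order, at 331 to 1203 CPM against 3821 to 7775 CPM (-3.13, SE 0.28). Markers of mature cartilage and of bone were low in tenocytes. Col10a1 was at most 6.82 CPM in tenocytes against at least 2248 CPM, the hedgehog ligand Ihh at most 0.775 CPM against at least 240 CPM, and the bone sialoprotein Ibsp at most 38.1 CPM against at least 3538 CPM. The hedgehog receptor and target Ptch1 was lower as well (-4.07, SE 0.21).

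Against the same cells, tenocytes were higher for Igf1, at 1118, 1789 and 2518 CPM versus 18.4, 216 and 530 CPM (3.34, SE 0.45), and for Kera, at 17.3 to 250 CPM versus 0.541 to 43.5 CPM (3.19, SE 0.45). Elastin, the stretch-bearing protein encoded by Eln, differed by 3.33 (SE 0.32) and the matrix protein dermatopontin (Dpt) by 3.74 (SE 0.23). Il1r1, which was lower in tenocytes than in other stromal cells, was higher in tenocytes than in chondrocyte-like cells, at 37.6 to 118 CPM versus 8.11 to 62.6 CPM (1.82, SE 0.38, edgeR adjusted p = 0.00335). The IL-1 response list had 2 higher and 1 lower of 15, below the shares of 18% and 15.3% over all genes. Its median was 0.24 against 0.054 over all genes. The fibril regulators were divided here, with 11 higher and 5 lower of 26 and a median of 0.15. Those lower in tenocytes than in chondrocyte-like cells were Col11a1, Comp, Prelp, Chad and Omd.

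Another set held the 2824 stromal cells with no Tnmd, fewer than 2 UMIs of the other tendon markers and at least 5 UMIs of Aspn and Postn, 2 genes of matrix-forming fibroblasts. They were a mixture: 1882 held no UMI of the 4 pericyte markers, while the markers summed to 571 to 3552 CPM over the whole set and Rgs5 had a median of 1301 CPM, so the set is called by its genes and not as fibroblasts. Relative to this Aspn Postn set, 2065 of 12747 genes were higher in tenocytes (16.2%) and 2033 lower (15.9%). Kera was at 17.3 to 250 CPM against 0.178 to 2.74 CPM, without overlap (6.78, SE 0.27). Acan differed by 4.35 (SE 0.27), Col11a1 by 2.95 (SE 0.17) and Comp by 2.93 (SE 0.13), each without overlap. The pericyte genes Abcc9 (-6.43, SE 0.23) and Higd1b (-7.71, SE 0.25) led the lower genes. With the 1882 cells that had no pericyte marker UMI, 2566 genes were called in place of 4098, with Kera at 6.53, Acan at 4.05 and Comp at 2.59.

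Tenocytes were also divided among themselves by their Tnmd level. Cells with at least 5 Tnmd UMIs per 10000 UMIs were called Tnmd-rich (1508 cells) and the rest Tnmd-poor (1591 cells), and both kinds were summed in each of the 6 libraries. Of 11538 genes outside the rule, 355 were higher in Tnmd-rich cells (3.08%) and 377 lower (3.27%). Tnmd itself divided the 2 kinds, so genes that accompany it were set to differ this way. When every cell was thinned to the same depth, each tenocyte met the cut and no Tnmd-poor cell was left. The split therefore could not be repeated at equal depth. Tenocytes with only 1 Tnmd UMI, just inside the rule, were mostly Tnmd-poor, and their part in these differences was not tested. Among rule genes, given without a test, Fmod was at 671, 991 and 2112 CPM in Tnmd-rich cells and 214, 507 and 1207 CPM in Tnmd-poor cells, and Mkx at 8.64 to 27.6 CPM and 10.7 to 18.3 CPM.

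Of the 26 fibril regulators, 14 were higher in Tnmd-rich cells and 2 lower, with a median of 0.30 against -0.0030 over all genes. Chst5, a sulfotransferase that acts on keratan sulfate chains, was at 20.2, 43 and 65.3 CPM in Tnmd-rich cells and 2.37, 10 and 24.1 CPM in Tnmd-poor cells (1.90, SE 0.20). Kera, whose protein carries keratan sulfate, was at 25.9, 154 and 313 CPM against 5.2, 30.5 and 164 CPM (1.82, SE 0.24, edgeR adjusted p = 4.30e-04). Both were higher in 6 of 6 libraries, as the naming rule required, although the ranges overlapped. Pamr1, a secreted protein linked to muscle regeneration, stood at 142 to 353 CPM against 63.3 to 214 CPM (1.20, SE 0.11), and Col11a1 at 942 to 1844 CPM against 563 to 1422 CPM (0.68, SE 0.06). Cilp2 was higher in 5 of 6 libraries (2.08, SE 0.24). Comp was not called (0.43, edgeR adjusted p = 0.127).

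The lower genes included 11 of the 15 IL-1 response genes, at a list median of -0.75, with none higher. Cxcl5 was at 1.07, 17.6 and 115 CPM in Tnmd-rich cells and 59.6, 97.4 and 596 CPM in Tnmd-poor cells (-2.66, SE 0.24, edgeR adjusted p = 1.60e-05). Saa3 was at 1.26, 16.3 and 128 CPM against 43.4, 195 and 697 CPM (-2.82, SE 0.40). The chemokines Ccl7 (-2.04, SE 0.20) and Ccl2 (-1.5, SE 0.29) and the receptor Il1r1 (-0.99, SE 0.15) were lower in 6 of 6 libraries as well. The naming rule required this of Ccl7 and Ccl2. Fabp4, a fatty acid carrier of adipocytes and capillaries, differed by -1.73 (SE 0.31), the Wnt modulator Sfrp2 by -1.26 (SE 0.17) and Acta2, the smooth muscle actin, by -0.82 (SE 0.11). Rgs5 was at 1.62 to 7.79 CPM against 8.01 to 46.8 CPM, so the few pericyte transcripts of the tenocytes lay mostly in Tnmd-poor cells; their part in the other differences was not tested.

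**Figure D3:**
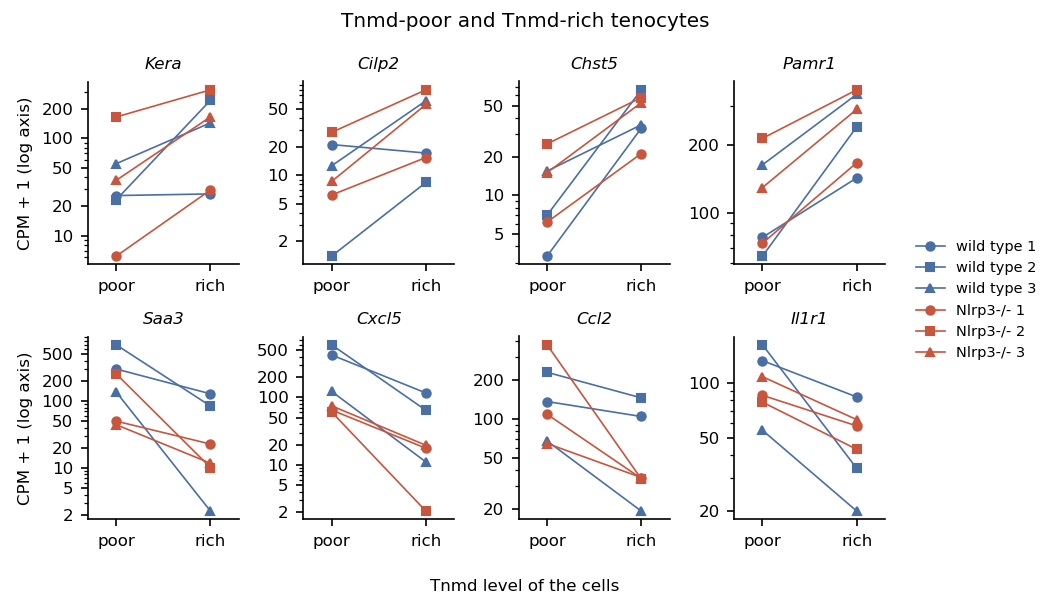
Summed level of 8 genes, as CPM + 1 on log axes that differ between panels, in Tnmd-poor and Tnmd-rich tenocytes, with a line for each library. The 6 lines of Chst5 and Pamr1 rise and those of Saa3, Cxcl5, Ccl2 and Il1r1 fall, while Cilp2 has 1 falling line, that of wild-type replicate 1.

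The share of stromal cells that were tenocytes did not differ between genotypes beyond the spread of the libraries. It was 17.03%, 13.6% and 41.8% in the wild-type libraries and 25.2%, 37.8% and 35.6% in the Nlrp3-/- libraries, or 24.1% ± 15.4 against 32.9% ± 6.73 (SD, n = 3 libraries each). Wild-type replicate 3 was the highest of all 6 and the groups overlapped. The edgeR test of cell numbers gave a log2 difference of 0.45 (SE 0.46, p = 0.373), and the exact two-sided permutation test gave p = 0.4, where 0.1 is the smallest p that 3 against 3 allows. Wild-type replicate 3 decided this value, since without it the difference was 1.11 (edgeR p = 0.00284, exact permutation p = 0.2). The other stromal cells of Nlrp3-/- replicate 1 had a median of 3476 UMIs against 8971 for its tenocytes, and thinning every cell to 2000 UMIs gave 11.03% ± 8.78 against 18.5% ± 5.51 (exact permutation p = 0.3). As Tnmd was part of the rule, a gate without it was set beside these shares: stromal cells with at least 3 UMIs of Scx, Mkx, Thbs4 and Fmod combined, 6707 cells in all. Their share was 55.5%, 46.8% and 80.1% in wild type and 43.9%, 76.0% and 76.3% in Nlrp3-/- libraries (log2 difference 0.11, edgeR p = 0.833, exact permutation p = 1).

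**Figure D4:**
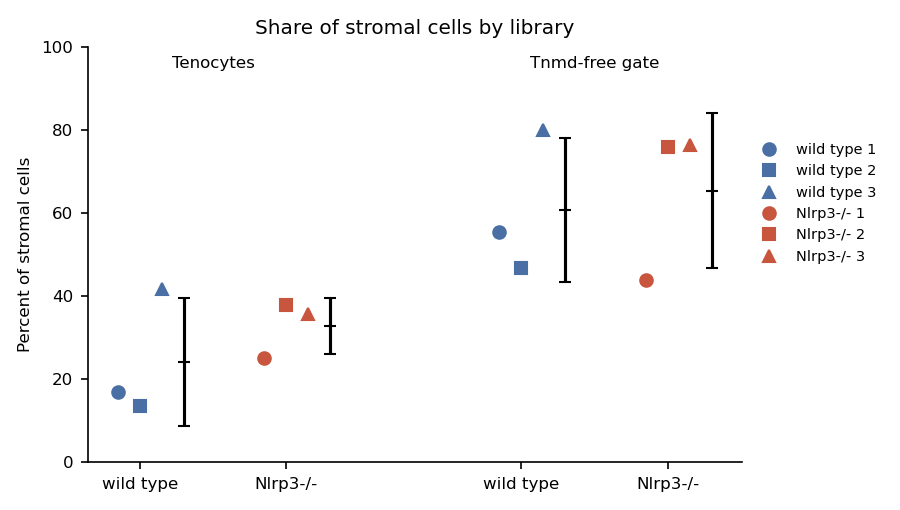
Percent of stromal cells that were tenocytes (left) or passed the gate without Tnmd (right), 1 point per library, with the mean and SD of 3 libraries as black bars. Wild-type replicate 3 lies above the other wild-type libraries in both, at 41.8% and 80.1%.

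The tendon markers themselves overlapped between genotypes. Tnmd in tenocytes was at 482, 710 and 755 CPM in wild type and 740, 915 and 714 CPM in Nlrp3-/- libraries, which overlap. In the gate that did not use Tnmd it was at 147, 204 and 385 CPM against 405, 443 and 316 CPM (log2 difference 0.57, SE 0.34), again with overlap. Fmod in that gate was at 261, 202 and 723 CPM against 444, 1122 and 593 CPM (0.78, SE 0.54), and Scx at 149, 191 and 386 CPM against 276, 258 and 282 CPM (0.07, SE 0.33). Both were part of that gate and have no test. Nlrp3 had no UMI in the tenocytes of any Nlrp3-/- library, which allows up to 0.228 to 0.499 CPM per library by counting error alone, and stood at 5.63, 6.03 and 1.99 CPM in wild type (edgeR adjusted p = 0.121).

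Across 11928 genes in tenocytes, 18 (0.151%) passed the edgeR adjusted p of 0.05 between genotypes, 5 higher and 13 lower in Nlrp3-/- cells, and 1432 had an unadjusted p under 0.05. Of the 18, 2 lay on the X and 4 on the Y chromosome, 3 lay within 20 Mb of Nlrp3 on chromosome 11, and 9 lay elsewhere. Among the 9, Dbp, a circadian transcription factor, was at 51.1, 50 and 87.2 CPM in wild type and 7.49, 8.99 and 10.4 CPM in Nlrp3-/- libraries (-2.89, SE 0.27, adjusted p = 0.00949). The clock gene Per3 was at 26, 15.6 and 28.6 CPM against 6.82, 3.72 and 5.85 CPM (-2.18, SE 0.29). Cxcl9, a chemokine induced by interferon-gamma, was at 12.1, 22.9 and 18.5 CPM against 2.66, 0.62 and 2.05 CPM (-3.40, SE 0.41), Nmnat1, an enzyme of nuclear NAD synthesis, at 17.8, 20.3 and 13.9 CPM against 3.66, 5.89 and 3.5 CPM (-2.08, SE 0.27), and Wdfy1, an adaptor of Toll-like receptor signalling, at 44.2, 37.9 and 45.9 CPM against 19.6, 10.5 and 14.7 CPM (-1.60, SE 0.22). None of these 5 overlapped between groups, which held for all 18 called genes. The naming rule required it of Dbp and Wdfy1, so it adds no support. How many of all 11928 genes did not overlap was not counted. Per3, Cxcl9 and Nmnat1 were chosen after their values were seen, having missed the mean of 20 CPM in that rule. Tpm3-rs7, a tropomyosin-like sequence that can share reads with its parent gene, was at 35.9 to 92.7 CPM against 0.775 to 1.06 CPM and is uncertain. The count fell to 4 without Nlrp3-/- replicate 3 and to 7 without Nlrp3-/- replicate 1, and Dbp lost its call in both; Wdfy1 lost it when any library but wild-type replicate 3 was left out. Per3, Cxcl9 and Nmnat1 also lost their calls without Nlrp3-/- replicate 1 or 3, Per3 and Nmnat1 without wild-type replicate 1, Cxcl9 and Nmnat1 without wild-type replicate 2, and Per3 without Nlrp3-/- replicate 2. Per3 and Wdfy1 lost theirs with cells thinned to 2000 UMIs, and Cxcl9 with a replicate block. Free RNA, read from barcodes of at most 100 UMIs, differed between genotypes as well for Nmnat1, Wdfy1 and Dbp. Nmnat1 was at 9.71 to 17.5 CPM there in wild type and 2.74 to 3.54 CPM in Nlrp3-/- libraries. Wdfy1 was at 31.2 to 41.7 CPM and 14.03 to 16.6 CPM, and Dbp at 18.4 to 28.3 CPM and 5.86 to 8.41 CPM. In Nlrp3-/- tenocytes Dbp lay below free RNA in replicate 1 and above it in replicates 2 and 3. Wdfy1 lay above it in replicate 1 and below it in replicates 2 and 3. Per3 in free RNA overlapped, at 5.96 to 11 CPM in wild type and 4.77 to 6.17 CPM in Nlrp3-/- libraries. Cxcl9 was at 5.18 to 12.2 CPM in free RNA of wild type and 4.09 to 7.73 CPM in that of Nlrp3-/- libraries, and its level in Nlrp3-/- tenocytes lay below the latter in each library, so it is read as background there. The part of free RNA in these differences was not tested. All 5 genes were lower in Nlrp3-/- libraries in the other stromal cells too, so these differences were not particular to tenocytes. Dbp was there at 31.4 to 62.1 CPM in wild type and 5.34 to 8.18 CPM in Nlrp3-/- libraries. Per3 was at 13.1 to 20.9 CPM and 5.65 to 6.70 CPM, and Cxcl9 at 13.4 to 25.0 CPM and 7.92 to 10.4 CPM. Nmnat1 was at 16.6 to 22.2 CPM and 3.27 to 4.48 CPM, and Wdfy1 at 45.8 to 68.4 CPM and 16.1 to 20.6 CPM.

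In the gate that did not use Tnmd 22 of 13257 genes passed (0.166%). Dbp (-2.97, SE 0.26) and Wdfy1 (-1.65, SE 0.17) were also lower here. Dbp lost this call without Nlrp3-/- replicate 1 or 3, and Wdfy1 without wild-type replicate 1 or 2 or Nlrp3-/- replicate 2 or 3. Rgs5 was at 12.6, 11.5 and 11 CPM in wild type and 32, 36.6 and 26.9 CPM in Nlrp3-/- libraries (1.36, SE 0.16, edgeR adjusted p = 0.0274). The other 3 pericyte markers, Kcnj8, Abcc9 and Notch3, were not called in this gate. The sum of all 4, of which Rgs5 was the larger share, was 16.65 to 23.5 CPM in wild type and 40.7 to 47 CPM in Nlrp3-/- libraries, and the 4 erythroid markers summed to 4.19 to 14.6 CPM and 22.0 to 263 CPM; their part in the result was not tested. Hhipl1, a hedgehog-interacting protein-like gene, was at 46.3, 54.1 and 51.6 CPM against 28.1, 25.3 and 30.1 CPM (-0.95, SE 0.12). Rgs5 and Hhipl1 lost the call when any library but wild-type replicate 3 was left out, and also with a replicate block.

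With all 6 libraries, edgeR called no gene of the matrix, signalling or inflammatory lists between genotypes in tenocytes. DESeq2 called 7 (Timp1, Cxcl5, Cxcl1 and Nlrp3 lower, Igf2, Col9a3 and Col9a2 higher), edgeR without the low-count filter called 5 of these 7, all but Timp1 and Cxcl1, and edgeR with a replicate block called Matn4. The fibril list had a median of 0.27 and the 11 tested cartilage genes one of 1.04, against 0.026 over all genes. The IL-1 response list had a median of -0.51, with Cxcl5 at 339, 397 and 69.4 CPM in wild type and 39.3, 25.9 and 49.9 CPM in Nlrp3-/- libraries (-2.87, SE 0.58, edgeR adjusted p = 0.264). Timp1 was at 2569, 1745 and 825 CPM against 460, 910 and 784 CPM (-1.32, SE 0.42), and Col11a1 at 782, 704 and 1582 CPM against 1548, 1443 and 1350 CPM (0.41, SE 0.31). In each of these 3 genes wild-type replicate 3 lay with or near the Nlrp3-/- libraries and away from the other wild-type libraries. Over 11941 genes its tenocytes had Spearman correlations of 0.965 to 0.981 with the Nlrp3-/- libraries and of 0.948 and 0.955 with the other wild-type libraries, a description across genes, which are not independent. Nlrp3-/- replicates 1 and 2 correlated at only 0.949 with each other, so the spread within that group was as wide. Wild-type replicates 1 and 2, at 0.975 with each other, held the fewest tenocytes, 155 and 275.

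Without wild-type replicate 3, 668 genes were called in tenocytes in place of 18, and 1641 in place of 22 in the gate without Tnmd; the single remaining pair of wild-type libraries then sets the spread of its group. This library was singled out on the values of these same genes, so the calls made without it are a description of how the result depends on it, and leaving out any other library gave 4 to 16 calls in tenocytes. Of 12288 genes tested 228 (1.86%) were then higher in Nlrp3-/- tenocytes and 440 (3.58%) lower. The higher ones included 5 of 26 fibril regulators, Col11a1 (0.88), Col12a1 (0.77), Aspn (0.64), Col14a1 (0.85) and Thbs2 (1.16), and 3 of 13 cartilage genes, Ucma (1.28), Col9a3 (2.28) and Matn3 (2.00). Cxcl5 (-3.34), Cxcl1 (-1.74), Nfkbia (-0.84), Vcam1 (-0.71), Timp1 (-1.66), Adamts15 (-1.46) and Gsdmd, the pore-forming executor of pyroptosis (-1.14), were lower. In edgeR with the low-count filter, none of these genes was called with all 6 libraries. The neutrophil transcript Retnlg was lower as well (-1.97). The clock gene Arntl went the other way from Dbp and Per3 and was higher (1.72). The 6 neutrophil markers of tenocytes, which include S100a8 and S100a9 that the selection limits, summed to 1289, 691 and 354 CPM in wild type and 409, 525 and 627 CPM in Nlrp3-/- libraries, and the 4 markers outside the rule had a median log2 difference of -0.74 over all 6 libraries; their part in the result was not tested. Whether the genotype difference in tenocytes departed from that in the other stromal cells of the same libraries was tested for 13922 genes as an interaction, and 0 (0%) passed in edgeR, with 660 at an unadjusted p under 0.05 and 5 called by DESeq2.

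**Figure D5:**
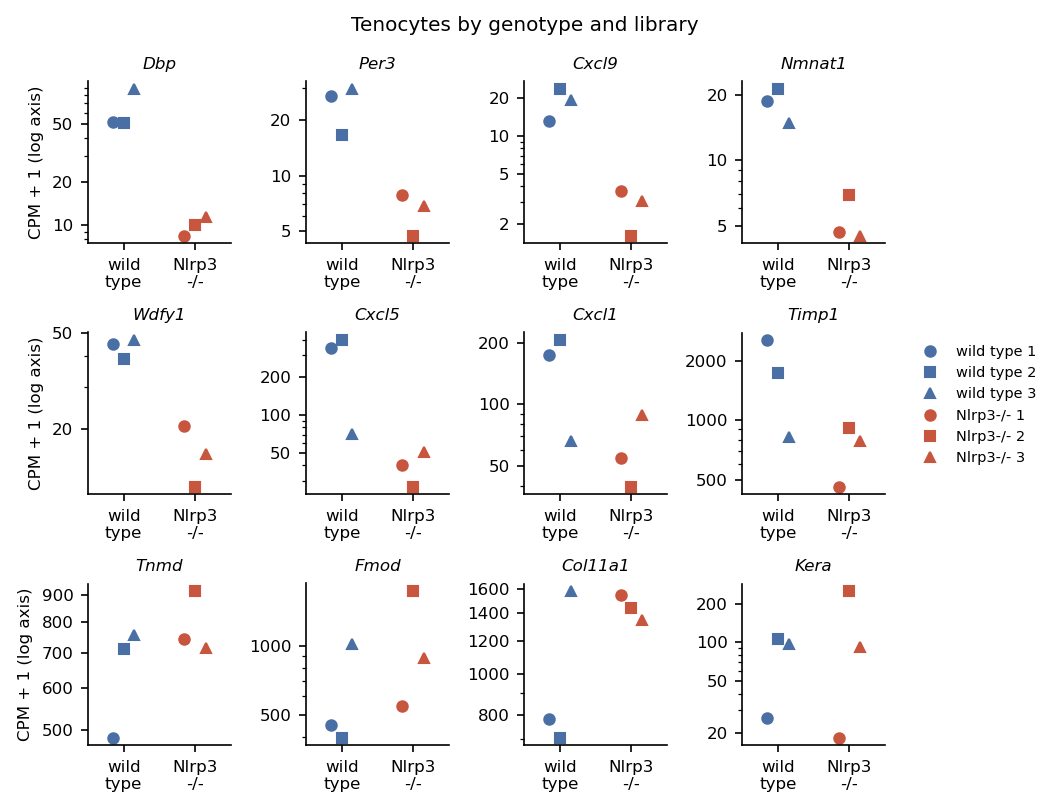
Summed level of 12 genes in tenocytes, as CPM + 1 on log axes that differ between panels, 1 point per library. The groups separate for Dbp, Per3, Cxcl9, Nmnat1 and Wdfy1, and for Cxcl5, Timp1 and Col11a1 the blue triangle of wild-type replicate 3 lies near the Nlrp3-/- points.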

How the data were processed

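For each library the authors deposited a raw matrix of UMI counts per gene and barcode, before cell calling or normalization. The submitters' processing notes name Cell Ranger 2.1.1 and mm10, whereas the matrix headers name Cell Ranger 4. Gene positions came from a GENCODE annotation of GRCm38, which held 32235 of 32285 identifiers. No doublet removal went beyond the selection of cells. Counts were summed per library and cell set, for sets with at least 10 cells, and tested with edgeR 4.0.16 in R 4.3.3 (quasi-likelihood, TMM, filterByExpr, Benjamini-Hochberg over all genes, threshold 0.05). The test was also run on counts simulated from these data with known differences set in. False calls made up 3.37% to 9.86% of the calls there, depending on the comparison. Paired sets had the library as a block. Shares used the same test on cell numbers and an exact permutation test over 20 assignments. CPM are counts scaled to 1e+06. Scrublet scores came from scanpy 1.11.5. The genes singled out in each comparison were those with the largest called log2 difference, at most 10 in either direction, if their mean reached 20 CPM and every library moved one way or the genotypes did not overlap; rule genes and predicted genes were passed over. Genes of the lists and those marked as chosen later add to them. Members and gene lists were chosen with earlier results of these data known. Alternatives were DESeq2 1.42.0, RLE size factors, no filter, each library left out, thinned cells, Scrublet removal, other gate limits and a replicate block.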

Additional observations from a re-analysis of the deposited data

How the results depend on the processing

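With one choice changed at a time, the tenocyte share difference (0.45) kept its direction, at 0.16 to 1.11 with a library left out, 0.75 with thinned cells and 0.95 (3.27% against 6.31%, exact permutation p = 0.2) as a share of all filtered barcodes, and passed the edgeR threshold only without wild-type replicate 3. The share of the gate without Tnmd (0.11) ranged from -0.052 to 0.35 with a library left out and turned negative without wild-type replicate 2 and without Nlrp3-/- replicate 2 or 3. Against other stromal cells 4010 genes were called, 3049 to 3815 with a library left out 1680 with cells thinned to 2000 UMIs, and 3984 against the 2254 other stromal cells with no tendon gene UMI, of which 3036 were shared with the 4010 and Cxcl3 lost its call; against chondrocyte-like cells 4159, and 2826 to 3995; against the Aspn Postn set 4098, 3118 to 3774, and 2566 without pericyte marker UMIs, where Myh11 (0.50) and Ppp1r14a (0.78) changed sign. The 732 genes between Tnmd-rich and Tnmd-poor cells were 397 to 695, 473 with DESeq2 and 1172 without the filter. Between genotypes the 18 genes in tenocytes became 4 to 668 with a library left out, 128 with DESeq2, 48 without the filter and 5 with thinned cells; the 22 in the gate without Tnmd became 8 to 1641, 236 and 51; the interaction count of 0 became 5 with DESeq2, 67 without the filter and 0 to 1 with a library left out. The cause of these changes was not tested. Same-numbered libraries did not deviate together (r = 0.10, -0.27 and -0.11), and a pair of unlike number reached 0.32. No pairing by number was seen, but so few correlations cannot exclude one. A replicate block gave 17 genes in tenocytes, 17 in the gate without Tnmd, and share differences of 0.60 and 0.096.

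Depth limits the low-count genes: 3 counts in the tenocytes of a library correspond to 0.228 to 1.3 CPM. With 3 libraries a group, 25% of 2-fold and 83% of 4-fold differences were recovered between genotypes in tenocytes. These were set into genes drawn at random from all that passed the low-count filter. Recovery for low-count genes alone was not measured.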
